A study of Drosophila melanogaster with 8 samples.

Results

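The Oatp genes of Drosophila melanogaster encode organic anion transporting polypeptides, and one of them, Oatp74D, encodes the importer that carries ecdysone into cells. The genes described here are the 8 rows of the deposited table named Oatp26F, Oatp30B, Oatp33Ea, Oatp33Eb, Oatp58Da, Oatp58Db, Oatp58Dc and Oatp74D, out of 17558 genes, and no expression value was used to choose them. They were measured by poly(A) mRNA-seq in ring glands of wandering larvae of the last instar, from 4 Kdm5[140] and 4 WT libraries. Kdm5[140] is a null allele of the histone demethylase gene Kdm5, listed in the table under its older symbol lid, and the WT animals were w[1118]. Each library was made from 80 pooled ring glands, with males as 50% of the animals. Both genotypes were matched by stage and not by age. Kdm5[140] larvae develop more slowly and were about 48 h older at collection than the WT larvae, which were taken about 120 h after egg laying, so that age and genotype cannot be told apart. Neither group received a treatment. All cells of the mutant animals carried the allele, so the libraries do not separate an effect in the ring gland from one elsewhere in the larva.

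Ecdysone is the steroid hormone that sets the timing of insect molts and metamorphosis. Prothoracic gland cells, which make up most of the ring gland, synthesize it from dietary sterols, load it into vesicles and release it into the hemolymph, and target cells take it up before it binds its nuclear receptor. Oatp proteins are multi-pass membrane carriers of the solute carrier family SLCO. In mammals they take up bile acids, steroid conjugates, thyroid hormones and many drugs. The fly importer Oatp74D, also named Ecdysone Importer (EcI), is required for ecdysone to enter target cells, and the prothoracic gland is itself a target of the hormone it secretes. RefSeq lists Oatp33Ea, Oatp58Dc and Oatp58Db under the synonyms EcI-2, EcI-3 and EcI-4. Oatp58Dc is also known for its part in keeping organic anions out of the fly brain at the blood-brain barrier.

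The 8 genes lie on 3 chromosome arms of dm6, and the table's coordinates are those of the reference annotation for each of them. Oatp74D (FBgn0036732) lies on the plus strand at 3L:17487118-17511693. It has 4 annotated transcripts from 2 start sites, merged exons of 4146 bases and a protein of 819 residues. The small immune gene edin is nested on the same strand within it, in an intron. Oatp30B (FBgn0032123, 2L:9521210-9540060, plus strand) has the longest merged exons of the 8 genes at 5581 bases, encodes proteins of 1136 to 1197 residues and holds CG31883 within its span. Oatp26F (FBgn0051634) lies at 2L:6625138-6632407 on the minus strand. Oatp33Ea (FBgn0032433, 2L:12441401-12445924, minus strand) and Oatp33Eb (FBgn0032435, 2L:12448484-12452047, plus strand) are separated by CG5421. The 3 remaining genes form a cluster on the minus strand of 2R, with Oatp58Da (FBgn0050277) at 22218456-22220905, Oatp58Db (FBgn0034715) at 22221180-22223499 and Oatp58Dc (FBgn0034716) at 22223681-22228574. The strand setting of the read counting is not given in the sources used here. Exons of Oatp26F overlap CG34345 and exons of Oatp33Eb overlap CG5418, each on the opposite strand, and Oatp58Da overlaps CG30278 on the same strand, so the few reads of those 3 genes are uncertain. The Oatp58D genes are tandem relatives, and how reads shared between them would have been counted is not given.

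The libraries held 17131110 to 19494692 counts on genes. The transcript of lid had 200, 193, 194 and 195 CPM (TMM-normalized counts per 1000000) in the 4 libraries labelled Kdm5[140], replicates 1 to 4, against 172, 144, 144 and 155 CPM in WT. It was therefore higher where the null allele is labelled (log2 fold change 0.35, edgeR FDR = 0.00437), and since a count over the whole gene cannot tell an intact from a broken transcript, this does not check the labels. Directions below compare the libraries as labelled. All 6 prothoracic gland markers (nvd, spok, sro, phm, dib and sad) were detected in every library, with a summed level of 30106 to 39102 CPM in Kdm5[140] and 41010 to 43950 CPM in WT. Nothing in the sources says that the 4 pools of a genotype were raised separately, so p-values measure the spread between these pools only.

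Oatp74D was by far the most abundant Oatp transcript in both genotypes. Per kilobase of gene length, so that genes can be compared, it had 1289 ± 75.9 CPM per kb in Kdm5[140] and 1505 ± 318 CPM per kb in WT (SD, n = 4 each). These levels placed it at rank 93 of all 17558 genes in Kdm5[140] and at rank 91 in WT. Oatp30B came next with 10.2 ± 0.683 CPM per kb in Kdm5[140] and 9.99 ± 2.05 CPM per kb in WT (SD, n = 4 each). Oatp58Dc had 0.778 ± 0.292 CPM per kb in Kdm5[140] and 0.543 ± 0.352 CPM per kb in WT (SD, n = 4 each). The other 5 genes all averaged under the level of Oatp58Dc. Their means in Kdm5[140] were 0.194 CPM per kb for Oatp26F, 0.139 for Oatp33Ea, 0.198 for Oatp33Eb, 0.0689 for Oatp58Da and 0.0409 for Oatp58Db. In WT the means were 0.178 CPM per kb for Oatp26F, 0.141 for Oatp33Ea, 0.0312 for Oatp33Eb, 0.0273 for Oatp58Da and 0.00703 for Oatp58Db. Single libraries decided several of these low means. Without Kdm5[140] replicate 2 the Kdm5[140] mean was 0.0153 CPM per kb for Oatp58Da and 0.0193 for Oatp58Db, and without Kdm5[140] replicate 3 it was 0.110 for Oatp33Eb. The WT mean was 0.0666 CPM per kb for Oatp33Ea without WT replicate 1 and 0.0199 for Oatp33Eb without WT replicate 2. Without WT replicate 3 it was 0.00918 CPM per kb for Oatp58Da and 0 for Oatp58Db.

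**Figure D1:**
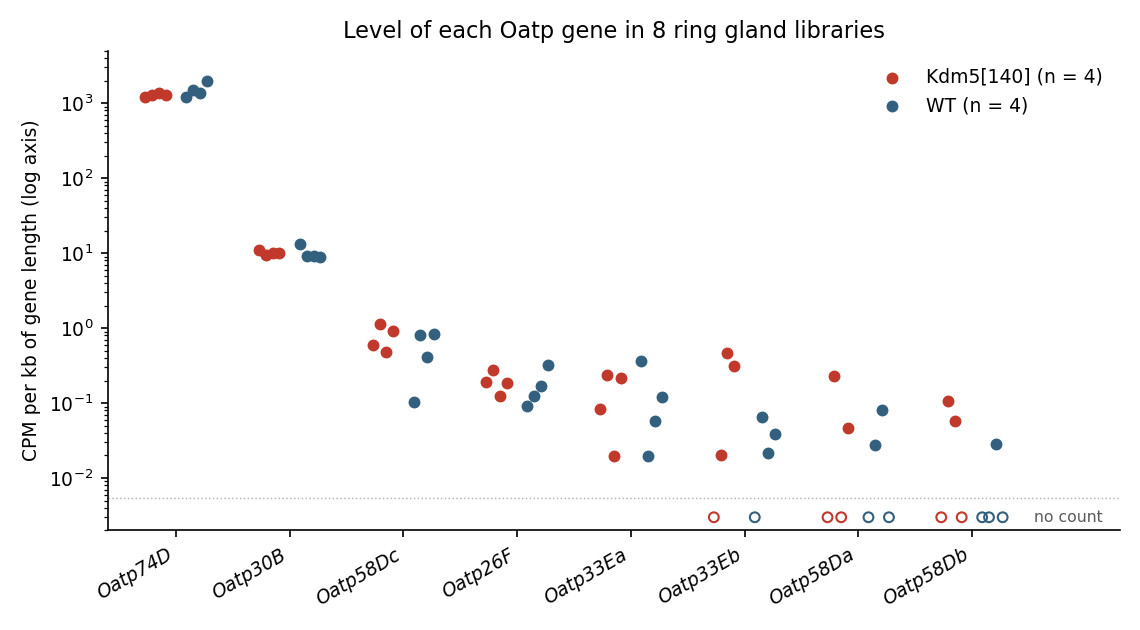
TMM-normalized CPM per kilobase of gene length (log axis) of the 8 Oatp genes, with 1 point per library, Kdm5[140] in red left of WT in blue, and open circles below the dotted line for libraries with no count. Oatp74D lies between 1199 and 1949 in all 8 libraries, Oatp30B between 8.76 and 13.1, and the values of the lower genes overlap one another.

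The order of the first members was clear against the spread between libraries. The lowest value of Oatp74D in any library was 1199 CPM per kb and the highest value of Oatp30B was 13.1 CPM per kb. Oatp30B in turn was at least 8.76 CPM per kb in every library, above the 1.13 CPM per kb that Oatp58Dc reached at most. Further down, Oatp58Dc lay above Oatp26F in Kdm5[140], with a lowest value of 0.481 against a highest value of 0.274 CPM per kb. In WT the same neighbours overlapped, because Oatp58Dc had 0.105 CPM per kb in WT replicate 1 and Oatp26F had 0.326 CPM per kb in WT replicate 4. Neighbours in the order among Oatp26F, Oatp33Ea, Oatp33Eb, Oatp58Da and Oatp58Db overlapped in both genotypes and were not distinguished at this depth.

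Of all counts on the 8 genes, Oatp74D took 98.7 to 99.0% in the Kdm5[140] libraries and 98.5 to 99.4% in the WT libraries. Ratios within a library do not depend on scaling between libraries. The log2 ratio of Oatp74D to Oatp30B per kb was 6.75, 7.10, 7.10 and 6.97 in Kdm5[140] replicates 1 to 4, and 6.54, 7.37, 7.23 and 7.80 in WT replicates 1 to 4. The WT values spanned the Kdm5[140] values on both sides.

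For the comparison between genotypes, 1633 of 9317 tested genes passed an FDR under 0.01 in the edgeR quasi-likelihood test (17.5%). Of the tested genes, 7.91% passed as higher and 9.62% as lower in Kdm5[140]. The filter on low counts left 3 of the 8 Oatp genes, Oatp74D, Oatp30B and Oatp58Dc, and none of these 3 passed. None had an unadjusted p under 0.05 in this edgeR fit. The values of the genotypes overlapped for each Oatp gene, and the share of all genes with such overlap is not given here. For Oatp33Eb, Oatp58Da and Oatp58Db, libraries with no read in both genotypes made the overlap unavoidable. The DESeq2 Wald test and limma with voom weights also called 0 of the Oatp genes they tested. Without the filter, edgeR tested all 8 and called 0.

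Oatp74D had 97264, 97853, 94831 and 105867 reads in Kdm5[140] replicates 1 to 4, against 91528, 104442, 95913 and 153644 reads in WT replicates 1 to 4. After normalization these were 4971, 5399, 5730 and 5270 CPM in Kdm5[140], against 5021, 6223, 5641 and 8080 CPM in WT. The groups overlapped, and WT replicate 4 stood 1.44-fold above the mean of the other 3 WT libraries. The means were 5343 ± 315 CPM in Kdm5[140] and 6241 ± 1320 CPM in WT (SD, n = 4 each). The log2 fold change was −0.22 (standard error 0.13, 95% interval −0.53 to 0.08), which did not pass the test (edgeR FDR = 0.234). On the linear scale the interval ran from 0.695-fold to 1.06-fold. The summed level of the 6 prothoracic gland markers, given above, did not overlap between the genotypes, and its part in the level of Oatp74D was not tested. The single markers went in different directions. In Kdm5[140], sro (log2 fold change 1.01) and dib (0.56) passed as higher and spok (−0.83) as lower, while nvd, phm and sad did not pass. The level of spok averaged 6447 ± 970 CPM in Kdm5[140] and 11446 ± 361 CPM in WT (SD, n = 4 each). This called gene therefore weighs heavily in the sum. In bulk ring glands, fewer cells of a type and less RNA per cell cannot be told apart.

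WT replicate 4 decided much of that value. Without it, the log2 fold change of Oatp74D was −0.07 (edgeR FDR = 0.617), and without WT replicate 1, the lowest WT library, it was −0.32 (edgeR unadjusted p = 0.02775, FDR = 0.073). A gene length offset in the model gave −0.36 (edgeR unadjusted p = 0.02258, FDR = 0.063). That offset was fitted to values without TMM scaling and then added to TMM-scaled library sizes, so scaling between libraries entered more than once. The median log2 fold change over all tested genes was −0.08 in that fit, against 0.02 in the main fit. The part of gene length in the value for Oatp74D therefore cannot be told apart.

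**Figure D2:**
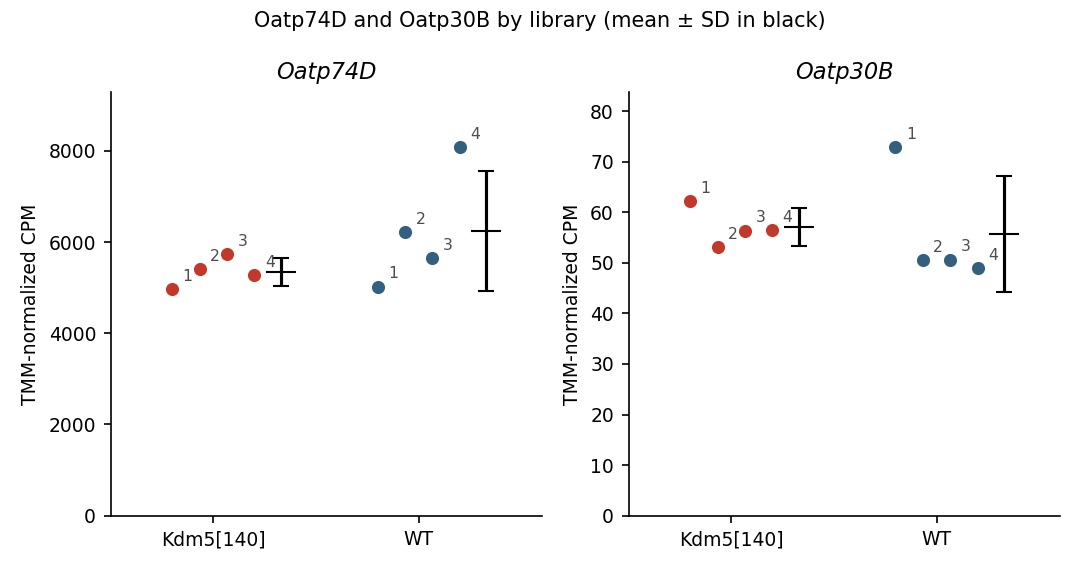
TMM-normalized CPM of Oatp74D (left) and Oatp30B (right) in each library, Kdm5[140] in red left of WT in blue, numbered by replicate, with the mean and SD of 4 libraries in black. WT replicate 4 is highest for Oatp74D (8080 CPM) and WT replicate 1 is highest for Oatp30B (72.8 CPM), while the Kdm5[140] libraries lie closer together.

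The spread of Oatp74D was unequal between the genotypes. Its SD on the log2 scale was 0.08 in Kdm5[140] and 0.29 in WT. Among the 157 genes that averaged 1000 CPM or more, the median SD was 0.13 in Kdm5[140] and 0.09 in WT. In Kdm5[140], 139 of these abundant genes had a larger SD than Oatp74D, and in WT 12 had. The cause of the high Oatp74D value in WT replicate 4 was not tested.

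Oatp30B had 62.2, 53.1, 56.4 and 56.5 CPM in Kdm5[140] replicates 1 to 4, against 72.8, 50.6, 50.6 and 48.9 CPM in WT replicates 1 to 4. WT replicate 1 was above all other libraries, and the other 3 WT libraries lay below all Kdm5[140] libraries. The means were 57.0 ± 3.81 CPM in Kdm5[140] and 55.7 ± 11.4 CPM in WT (SD, n = 4 each). The log2 fold change was 0.03 (standard error 0.13, 95% interval −0.25 to 0.32, edgeR FDR = 0.869). On the linear scale the interval ran from 0.840-fold to 1.25-fold. The sign of this value was not stable. It was 0.19 without WT replicate 1 (edgeR unadjusted p = 0.0238, FDR = 0.0651) and −0.14 with the gene length offset (edgeR FDR = 0.463). That offset also carried scaling between libraries, as given above.

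Oatp58Dc was read at much lower depth, with 37, 64, 25 and 57 reads in Kdm5[140] replicates 1 to 4, against 6, 43, 22 and 50 reads in WT replicates 1 to 4. WT replicate 1 was the lowest library and the others overlapped. The means were 2.44 ± 0.916 CPM in Kdm5[140] and 1.70 ± 1.10 CPM in WT (SD, n = 4 each). The log2 fold change was 0.52, with a standard error of 0.55 and a 95% interval from −0.72 to 1.76 (edgeR FDR = 0.505). A difference between 0.607-fold and 3.38-fold lay within the interval. Without WT replicate 1 the log2 fold change was 0.17 (edgeR FDR = 0.772). The markers of glia and the blood-brain barrier (repo, moody, Gli and Mdr65) were detected in every library, at a summed level of 108 to 136 CPM in Kdm5[140] and 118 to 140 CPM in WT, and 0 of the 4 passed the edgeR test. Whether the Oatp58Dc reads came from such cells was not tested.

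The remaining 5 genes were near the limit of detection and did not pass the filter. A library with no read of a gene allows up to 3 reads, which is 0.149 to 0.181 CPM in these libraries. Oatp26F had 9, 12, 5 and 9 reads in Kdm5[140], against 4, 5, 7 and 15 reads in WT. Oatp33Ea, one of the genes listed as a further ecdysone importer, had 5, 13, 1 and 13 reads in Kdm5[140], against 20, 1, 3 and 7 reads in WT. The groups overlapped for both, and the ratio of summed reads scaled by library size, Kdm5[140] over WT, was 1.08 for Oatp26F (exact 95% interval 0.646 to 1.81) and 0.987 for Oatp33Ea (0.583 to 1.67). These intervals cover counting error only and not the spread between pools.

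Oatp33Eb was the low member with the most uneven counts. It had 0, 1, 21 and 17 reads in Kdm5[140] replicates 1 to 4, against 0, 3, 1 and 2 reads in WT replicates 1 to 4. Nearly all of the 39 reads in Kdm5[140] therefore came from replicates 3 and 4, while replicates 1 and 2 lay in the WT range. The ratio of summed reads was 6.21 (exact 95% interval 2.61 to 18.0, counting error only). In the edgeR fit without a filter, which takes the spread between pools into account, its log2 fold change was 2.57 (standard error 1.25, FDR = 0.19) and did not pass. The summed level of the salivary gland markers (Sgs3, Sgs4, Sgs5, Sgs7 and Sgs8) was 233, 933, 2588 and 838 CPM in Kdm5[140] replicates 1 to 4, against 549 to 1250 CPM in WT. The summed level of the fat body markers (Lsp1alpha, Lsp1beta, Lsp2, Fbp1 and Fbp2) was 3158, 1621, 993 and 3849 CPM in Kdm5[140] replicates 1 to 4, against 635 to 2055 CPM in WT. The haemocyte markers Hml, NimC1, He and Pxn summed to 118, 94.0, 127 and 278 CPM in Kdm5[140] replicates 1 to 4. In WT replicates 1 to 4 their sum was 113, 340, 135 and 129 CPM. No marker of these lists passed the edgeR test, and the part of these cell types in the Oatp33Eb counts was not tested.

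Oatp58Da had 0, 9, 0 and 2 reads in Kdm5[140] replicates 1 to 4, against 0, 1, 3 and 0 reads in WT replicates 1 to 4. Oatp58Db, the other EcI-listed gene of the cluster, had 0, 4, 2 and 0 reads in Kdm5[140], against 0, 0, 1 and 0 reads in WT. Reads were found in 4 of the 8 libraries for Oatp58Da and in 3 for Oatp58Db, and the ratio of summed reads was 2.63 for Oatp58Da (exact 95% interval 0.779 to 11.3) and 5.73 for Oatp58Db (0.696 to 264), each including 1. Oatp proteins of flies have been studied in the Malpighian tubule, a tissue outside the ring gland. Of its markers, Uro had no read in most libraries and averaged 0.0276 CPM in Kdm5[140] and 0.0286 CPM in WT, and the summed level of Uro, CapaR and Lkr was 1.51 to 2.19 CPM in Kdm5[140] and 0.953 to 1.76 CPM in WT.

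The neighbours of the Oatp genes did not share the level of Oatp74D. CG6333, next to it on the lower coordinate side, averaged 1.48 ± 0.524 CPM in Kdm5[140] and 0.753 ± 0.363 CPM in WT, and the nested gene edin averaged 2.93 ± 0.478 CPM in Kdm5[140] and 2.60 ± 0.676 CPM in WT (SD, n = 4 each). Neither passed the test (edgeR FDR = 0.146 for CG6333 and 0.662 for edin). CG33298, which ends 513 bases before Oatp30B on the same strand, had 108, 83.3, 92.7 and 97.9 CPM in Kdm5[140] replicates 1 to 4, against 122, 82.5, 73.7 and 69.7 CPM in WT replicates 1 to 4. Its highest library in each genotype was replicate 1, as for Oatp30B. Elf, a translation termination factor beside Oatp33Ea, averaged 348 ± 26.1 CPM in Kdm5[140] and 290 ± 24.0 CPM in WT (SD, n = 4 each) and did not pass (edgeR FDR = 0.0316). CG31883, CG34345, CG5421, CG5418 and CG30278 had 0 to 6 reads over the 4 libraries of a genotype.

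Genes with a profile over the 8 libraries most like that of each abundant Oatp gene were found among 6495 genes averaging 10 CPM or more, by the root mean square difference of log2 CPM after each gene was centred on its own mean. For Oatp74D these were asp, a spindle pole protein (0.0827), CG43394 (0.0889), Elp3, the catalytic subunit of Elongator (0.0891), Msh6 of DNA mismatch repair (0.0925) and CG14231 (0.0953), against a median of 0.266 over all genes compared. All 5 were highest in WT replicate 4, at log2 values 0.30 to 0.39 above their means, where Oatp74D was 0.50 above its own. For Oatp30B they were Atg2, which acts in autophagosome formation (0.0353), the RNA-binding protein gene bru-2 (0.0388) and the kinase gene Pak3 (0.0450), against a median of 0.245. These 3 were highest in WT replicate 1, at log2 values 0.34 to 0.44 above their means, where Oatp30B was 0.38 above its own. Both lists therefore describe which library stood high, and the points share library and depth.

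**Figure D3:**
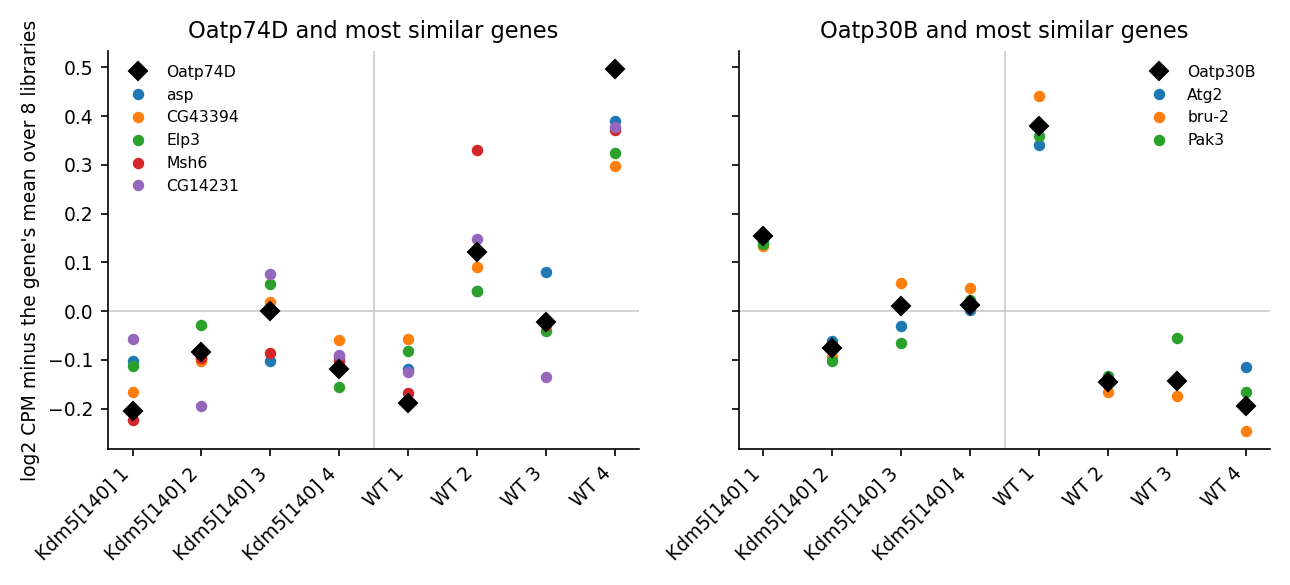
Log2 CPM of Oatp74D (left, black diamonds) and Oatp30B (right, black diamonds) with their most similar genes (coloured circles), each minus the gene's mean over the 8 libraries, Kdm5[140] replicates left of WT replicates. The genes beside Oatp74D share its peak in WT replicate 4 (0.50 for Oatp74D), and those beside Oatp30B share its peak in WT replicate 1 (0.38 for Oatp30B).

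Oatp74D can be read beside the other steps of ecdysone handling. Of 8 tested genes of ecdysone synthesis, 3 were higher and 1 was lower in Kdm5[140] at an edgeR FDR under 0.01, with a median log2 fold change of 0.17 against 0.02 over all tested genes. The called genes were 50.0% of this list, against 17.5% of all tested genes. The median includes genes of low level in WT. Cyp6t3 averaged 32.5 CPM in Kdm5[140] and 1.56 CPM in WT, and shd 2.03 and 0.430 CPM (edgeR FDR = 0.0251). The 6 prothoracic gland markers alone had a median log2 fold change of −0.23. The summed level of the synthesis list was 30148 to 39133 CPM in Kdm5[140] and 41012 to 43952 CPM in WT. The P450 gene Cyp6t3 (4.38), the dehydrogenase gene sro (1.01) and the hydroxylase gene dib (0.56) rose, and spok, a P450 gene of the pathway's intermediate steps, fell (−0.83). With each library left out in turn, Cyp6t3, sro and spok passed in all 8 fits and dib in 4. The hydroxylase genes phm and sad, the most abundant of the list, had log2 fold changes of −0.22 (edgeR FDR = 0.0785) and −0.33 (edgeR FDR = 0.0251) and did not pass. Oatp74D had the same log2 fold change as phm to 2 decimals, and their log2 ratio per kb was −2.25 to −2.07 in Kdm5[140] and −2.52 to −1.84 in WT, so that it overlapped between genotypes.

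Of the 9 tested genes of ecdysone loading and release, 4 were higher and 0 lower, with a median log2 fold change of 0.39. The called genes were 44.4% of this list, against 17.5% of all tested genes. With the gene length offset 0 of the 9 passed, and the median over all tested genes was −0.08. Since that offset also carried scaling between libraries, this loss cannot be put down to gene length alone. Without WT replicate 2 also 0 of the 9 passed. Atet, the ABC transporter that loads ecdysone into vesicles, had 2021, 1662, 1976 and 1884 CPM in Kdm5[140] replicates 1 to 4, against 1478, 923, 950 and 1059 CPM in WT replicates 1 to 4. It rose in Kdm5[140] without overlap (log2 fold change 0.77, standard error 0.15, edgeR FDR = 0.00396), though it passed in only 2 of the 8 fits made with a library removed. The other 3 were Cam, Galphaq and Plc21C, genes of calcium signalling, with log2 fold changes of 0.43, 0.39 and 0.39. With a library removed, Cam passed in 3, Galphaq in 7 and Plc21C in 4 of the 8 fits. The ratio of the importer to this exporter, examined after the values were seen, did not overlap between genotypes. Atet alone already did not overlap, so the ratio is no separate result about Oatp74D. The log2 ratio of Oatp74D to Atet per kb was 1.64, 2.04, 1.87 and 1.82 in Kdm5[140] replicates 1 to 4, against 2.10, 3.09, 2.91 and 3.27 in WT replicates 1 to 4, and Kdm5[140] replicate 2 and WT replicate 1 were the closest of them.

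**Figure D4:**
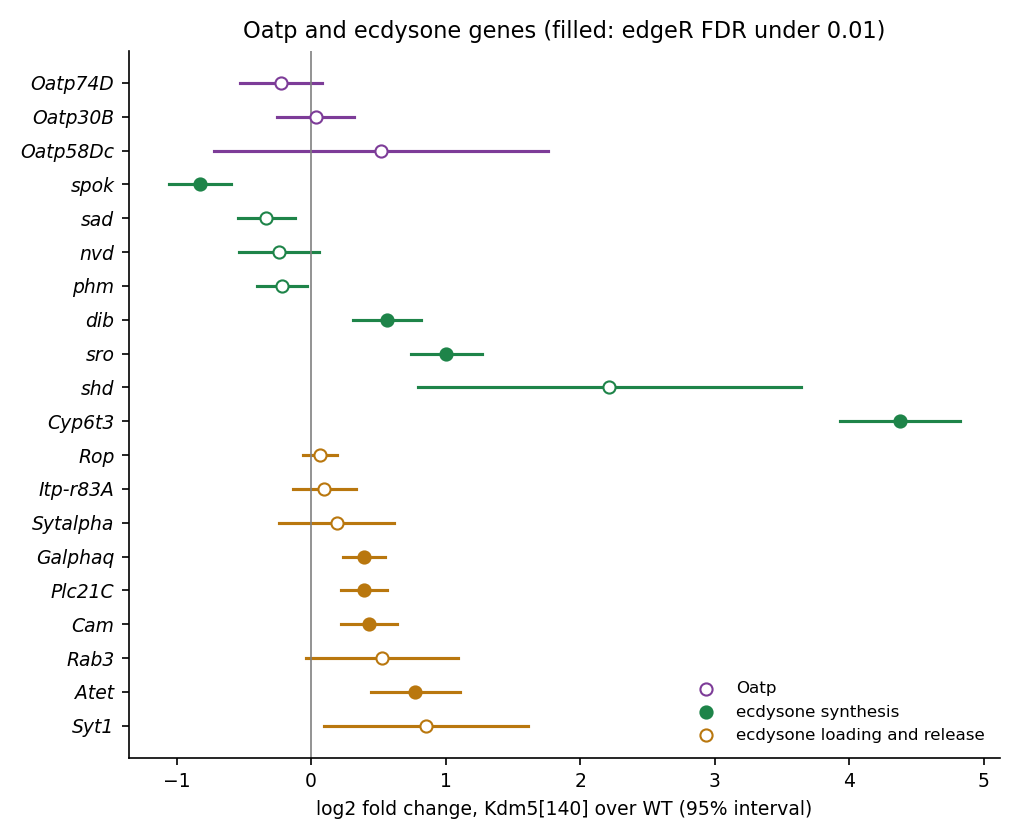
Log2 fold change, Kdm5[140] over WT, with its 95% interval from the edgeR fit (n = 4 each), for the 3 tested Oatp genes (purple), ecdysone synthesis genes (green) and ecdysone loading and release genes (ochre), filled where the FDR was under 0.01. The intervals of Oatp74D (−0.53 to 0.08), Oatp30B and Oatp58Dc all include 0, while 4 synthesis and 4 release genes are filled.

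Downstream of import, 3 of 17 tested genes of the ecdysone receptor and response were higher and 1 was lower, with a median log2 fold change of 0.15. This was 23.5% of the list, near the 17.5% of all tested genes. The receptor genes EcR and usp had log2 fold changes of 0.09 and 0.15 (edgeR FDR = 0.409 and 0.143) and did not pass. Cyp18a1, which inactivates ecdysteroids, rose most of those that passed (2.67, edgeR FDR = 3.44e-06). ImpE3 (349 ± 26.8 CPM in Kdm5[140] and 152 ± 51.9 CPM in WT, SD, n = 4 each) and vri (log2 fold change 0.45) also rose, and Eip71CD fell (−0.69). With a library removed, Cyp18a1 passed in all 8 fits, Eip71CD in 6, ImpE3 in 5 and vri in 1. The count of this list was 7 without WT replicate 1, 2 without WT replicate 2, and 1 without WT replicate 3 or without Kdm5[140] replicate 1. Among 11 tested genes of other carriers of organic solutes, 3 were higher and 2 lower in Kdm5[140], with a median of 0.29. The called genes were 45.5% of this list, against 17.5% of all tested genes. The ABC transporter gene Mdr49 (0.79), the cation transporter gene Orct2 (0.37) and CG9317, listed in the reference tables under the name CarT (1.37), rose. The citrate transporter gene Indy (−0.81) and the monocarboxylate transporter gene Mct1 (−1.67) fell. With a library removed, Indy passed in all 8 fits, Mct1 in 4, Mdr49 and Orct2 in 3 each and CG9317 in 2. The count of this list, 5 with all libraries, was 1 without WT replicate 3 or Kdm5[140] replicate 1, 2 without WT replicate 2 or Kdm5[140] replicate 2, and 3 without WT replicate 4 or Kdm5[140] replicate 3. These lists were written with earlier results of the same libraries known, and no list was tested against other genes.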

How the data were processed

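Poly(A) mRNA-seq of dissected ring glands was used, with 4 Kdm5[140] and 4 WT libraries grouped by the sample labels. The authors aligned reads to dm6 with HISAT2 2.0.5, used StringTie 1.3.3b for assembly and featureCounts 1.5.0-p3 for quantification, and deposited raw counts per gene. The deposited FPKM values by the authors were used only as an alternative level. The table also holds the authors' own comparison, made with DESeq2 1.20.0. Of it, the deposited mean signal per genotype, the log2 fold change and both kinds of p-value were not used.

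Counts were compared in edgeR 4.0.16 (R 4.3.3; TMM, filterByExpr, robust quasi-likelihood F test, Benjamini-Hochberg over 9317 genes, FDR threshold 0.01, as in the study). Standard errors came from the F statistic. Levels are TMM-normalized CPM, divided by the table's gene length where genes are compared. Likeness used log2 CPM with a prior count of 2. Depth was 17131110 to 19494692 counts per library. Libraries of a genotype differed by more than sampling noise (chi-square per degree of freedom 11.19 to 62.25). Exact intervals at 95% and the floor of 3 counts cover counting error only, since reads carried no molecular identifiers.

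The genes named are the 8 Oatp genes, lid, the nearest protein-coding neighbours, the 5 genes most like Oatp74D and the 3 most like Oatp30B (other Oatp genes were under 10 CPM), 4 lists of ecdysone and transporter genes, and cell type markers. The members and lists were chosen with earlier results of these data known. The members were taken by gene name, and no expression value was used to choose them. Symbols of 5 listed genes were matched through reference synonyms (Itp-r83A, Hr46, CG9317, CG3409 and CG8317), and secCl was not matched and not used. Alternatives were DESeq2 1.42.0, limma 3.58.1, other scalings, no filter, a replicate block, a gene length offset, protein-coding genes alone, FDR 0.05 and each library left out. The gene length offset was fitted to counts scaled by library totals and then added to TMM-scaled library sizes. It therefore also carried scaling between libraries. Python 3.11.15, pandas 2.3.3 and matplotlib 3.10.9 were used for positions and plots. No nucleotide or protein sequence was used here.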

Additional observations from a re-analysis of the deposited data

Results flagged for a closer look

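Within each genotype, the highest or lowest of 4 libraries was set against the other 3 by Dixon's ratio for each Oatp gene and each listed gene (108 groups of 4). This marked 14 values, and chance marks about 1 in 20 groups. The cause was not tested for any of them.

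Among the Oatp genes, Oatp30B had 72.85 CPM in WT replicate 1, against 48.91 to 50.64 CPM in the other WT libraries. Oatp58Db had 0.05881 CPM in WT replicate 3, which is a single read, against 0 in the other WT libraries. With 3 values at 0 any read is marked, so this value shows nothing beyond its presence. Oatp74D was not marked, although WT replicate 4 was its highest library.

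WT replicate 1 also stood apart for ecdysone genes, with sad at 13810 CPM (12810 to 12850 in the other WT libraries), Eip74EF at 305.5 CPM (218.1 to 225.8), br at 1954 CPM (1175 to 1298) and Eip78C at 187.0 CPM (59.11 to 79.66). Kdm5[140] replicate 3 stood apart with spok at 7897 CPM (5890 to 6087 in the other Kdm5[140] libraries), sad at 12360 CPM (9475 to 9870), Rop at 181.1 CPM (161.8 to 164.9) and Rab3 at 16.8 CPM (23.6 to 24.55). In Kdm5[140] replicate 4, shd had 4.729 CPM (1.022 to 1.269 in the others). The remaining WT values were MRP at 221.3 CPM in replicate 2 (253.4 to 259.1 in the others), Sytalpha at 4.705 CPM in replicate 3 (6.521 to 6.852) and Eip71CD at 44.02 CPM in replicate 4 (57.02 to 58.97).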

How the results depend on the processing

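No alternative called an Oatp gene at its threshold. Over 18 alternatives Oatp74D ran from −0.36 to −0.07 and Oatp58Dc from 0.17 to 0.82 on the log2 scale (Kdm5[140] over WT), with an FDR of at least 0.0613 and 0.257. Oatp30B turned negative in 5, at −0.14 with the gene length offset and down to −0.019 with 1 library left out (range −0.019 to 0.1862).

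With each library left out, edgeR called 960 genes (without WT replicate 3) to 1827 genes (without WT replicate 1) in all, 0 to 3 of ecdysone loading and release, 3 to 6 of synthesis, 1 to 7 of receptor and response, and 1 to 6 of the other transporters. The length offset, in which scaling between libraries entered more than once, left 0 release genes. FDR under 0.05 gave 2875 calls in all. Without TMM scaling 36.1% of calls were lower and with the length offset 68.9%, against 54.9%, and the median log2 fold change was 0.12 and −0.08, against 0.02. DESeq2 called 2441 genes. Leaving out WT replicate 1 and Kdm5[140] replicate 3 together, chosen after seeing the data, gave −0.36 for Oatp74D and 0.19 for Oatp30B (edgeR FDR 0.0613 and 0.077).

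Deviations of same-numbered libraries correlated at 0.123, 0.106, 0.232 and −0.113, not all above 0.1, and the pools hold different animals, so the numbers were not taken to pair the samples. With the replicate block edgeR called 1617 genes, 0 Oatp genes and 3 other transporters, and Mct1, CG9317 and Eip71CD did not pass (edgeR FDR 0.0248, 0.0105 and 0.0106).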
